A study of Canis lupus familiaris with 6 samples.

Results

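The genes described here are 9 genes of epidermal barrier lipid synthesis, taken by symbol from the gene table of CPEK cells: SPTLC1, SPTLC2, CERS3 and DEGS1 of ceramide synthesis, UGCG of glucosylceramide synthesis, ELOVL4 of fatty acid elongation, ABCA12 of lipid transport, and the lipoxygenases ALOX12B and ALOXE3. They were chosen by function, with earlier results of these data known, and are 9 of 35993 genes. All 9 were found, and all 9 were among the 14708 genes kept by the filter on low counts.

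CPEK is a canine epidermal keratinocyte line, labelled wild type in both groups. Cells near confluence received cold atmospheric microwave plasma (CAMP) directly for 30 s (dCAMP, 3 libraries) or gas without plasma (gas control, 3 libraries). After 15 min the medium was renewed, and total RNA was taken 24 h later for stranded mRNA sequencing. All libraries come from 1 cell line grown with serum as a monolayer, and the labels do not say whether the 3 libraries of a group came from separate cultures. The study's methods speak of independent experiments for its data in general, without naming these libraries. The p-values therefore measure the spread between libraries, which may be technical.

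The outermost layer of the epidermis is sealed by sheets of ceramides, cholesterol and free fatty acids between dead cells. Ceramides are built from serine and palmitoyl-CoA, joined to fatty acids of very great chain length, glucosylated, and loaded into lamellar granules, whose contents are later released and processed. In the acylceramides particular to skin, a linoleate end is oxidized by epidermal lipoxygenases before the lipid is bound to the protein envelope of the cell. Inherited loss of CERS3, ABCA12, ALOX12B or ALOXE3 causes ichthyosis, a scaling disorder of the skin barrier.

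The label of epidermal keratinocyte was checked against marker genes. The basal keratins KRT5 and KRT14 had mean FPKM values of 10290 and 9960 in gas and 8892 and 8057 in dCAMP, so both were lower in dCAMP, with an unadjusted p of 0.0481 and 0.0208 by edgeR's quasi-likelihood test. FPKM is the read count scaled to kilobases of transcript and to mapped reads, and it is used here to compare levels between genes. All 6 basal markers were expressed, with summed FPKM of 18810 to 23830 in gas and 17480 to 18610 in dCAMP. KRT1, a keratin of differentiating layers, had 0 counts in every library, which allows up to 3 counts in each, and FLG (filaggrin) had at most 11. The involucrin gene IVL was at a mean FPKM of 719.4 in gas and 750.2 in dCAMP. Simple epithelial markers summed to 57.5 to 66.5 FPKM in gas and 56.7 to 58.9 in dCAMP, and 2 of 4 (KRT8 and KRT18) were lower in dCAMP with an unadjusted p under 0.05. At 0 in all 6 libraries were DCN and LUM of fibroblasts, TYR and DCT of melanocytes, and PECAM1 of endothelium. So were PTPRC, CD3E and CD207 of leukocytes and AWAT1 and MC5R of sebocytes. Other genes of the same lists were detected, among them VWF of endothelium at 566 to 842 counts a library. COL3A1 of fibroblasts had 161 to 201 counts and PLIN1 of sebocytes 73 to 122. The fibroblast, melanocyte, endothelium and leukocyte lists each summed to at most 1.98 FPKM in any library. In them COL1A1 was lower in dCAMP and MLANA and CDH5 were higher with an unadjusted p under 0.05, with MLANA at no more than 16 counts. The 5 sebocyte genes summed to 324.8 to 414.8 in gas and 306.7 to 334.0 in dCAMP, and FADS2 among them was lower in dCAMP (unadjusted p 0.0479).

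Library totals were 43084921 to 54082634 counts. The gas libraries differed among themselves: mitochondrial transcripts made up 0.509%, 1.42% and 2.35% of the counts in gas 1, 2 and 3, against 2.19% to 2.24% in dCAMP. Gene length here is the mean length of the transcripts of a gene, weighted by their counts, and not the span of its locus. Relative to the dCAMP mean, the log2 level changed by -0.12, -0.088 and -0.01 per doubling of gene length in gas 1, 2 and 3, and by -0.006 to 0.005 in the dCAMP libraries. Gas 1 is thus the library farthest from dCAMP in both measures, and gas 3 the nearest gas library. Over all genes tested the median coefficient of variation (CV, the SD as a percentage of the mean) was 16.6% among gas and 5.89% among dCAMP libraries. The part of these differences in the results below was not tested, apart from the fits without single libraries and with a correction for gene length.

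Of the 9 barrier lipid genes, 8 had a higher fitted level in dCAMP and 1 a lower one. ABCA12 and ELOVL4 differed most, by 1.84-fold and 2.06-fold, followed by UGCG, CERS3, SPTLC2 and SPTLC1 at 1.27-fold to 1.46-fold. The 2 lipoxygenases, at the lowest levels of the 9, were at 0.927-fold (ALOX12B) and 1.06-fold (ALOXE3). Levels in single libraries are given as CPM, counts scaled by the TMM-normalized library size to a common total, and differences as log2 fold changes of dCAMP against gas from edgeR's quasi-likelihood fit over all 14708 genes.

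With an unadjusted p under 0.05, 5 of 9 genes were higher in dCAMP, where 6.81% of all genes tested were, and 0 were lower, where 13.9% were. A 2-fold difference with that p was reached by ELOVL4 alone, against 0.959% of all genes higher and 0.136% lower. By adjusted p, 0 of the 9 passed 0.05 with edgeR, and 0 of all 14708 genes did (0.00%, smallest adjusted p 0.136) against 3040 with an unadjusted p under 0.05. DESeq2 called 301 genes (2.59% of those with an adjusted p) when every gene with any count was fitted and 161 (1.25%) when a count in each library was required, and ABCA12 was the 1 barrier lipid gene in either fit. The median log2 fold change of the 9 was 0.44, beside 0.03 over all genes tested, of which 52.4% were higher in dCAMP.

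In 7 of 9 genes, every dCAMP library lay above every gas library, as in 19.0% of all genes tested, and in 0 of 9 every dCAMP library lay below, as in 20.9% of all genes. In the same 7, gas 1 was the lowest library, gas 2 the next and gas 3 the highest gas library. That order, with all dCAMP libraries above, held in 2164 of all genes tested (14.7%). It is also the order of the libraries by closeness to dCAMP in mitochondrial share and length trend. Without gas 3, 6 of 9 genes were higher with an adjusted p under 0.05 in edgeR, where 15.0% of all genes were higher and 18.1% lower by that call. In limma's voom with sample quality weights 7 of 9 were higher with an adjusted p under 0.05, where 32.6% of all genes were higher and 28.2% lower. These 7 are not the 7 without overlap: ALOXE3 was called (log2 fold change 0.61, adjusted p 0.0378) and DEGS1 was not (adjusted p 0.102). That fit gave gas 2 a weight of 6.73 and gas 1 and 3 weights of 0.115 and 0.192, so its gas level is close to that of 1 library.

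**Figure D1:**
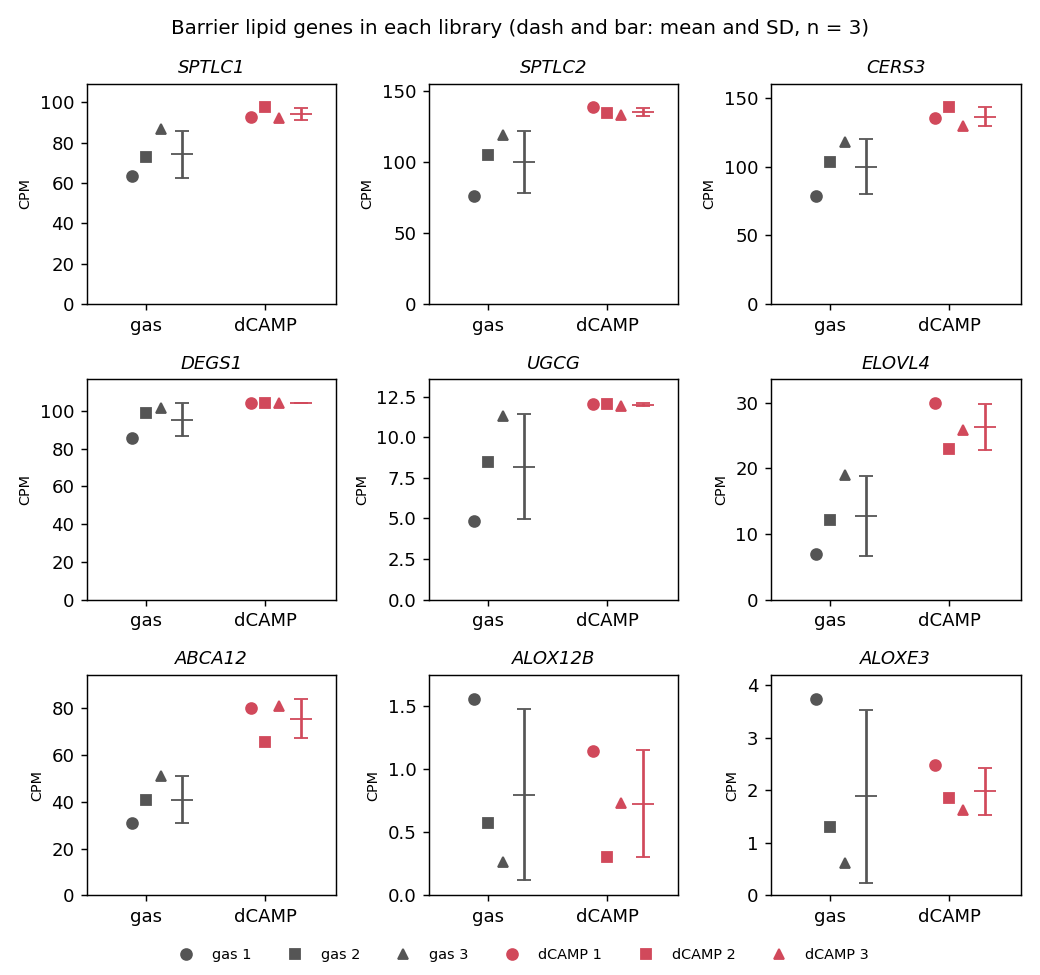
CPM of each of the 9 genes (vertical axes, each from 0) in the 3 gas libraries (grey) and 3 dCAMP libraries (red), with the mean and SD of each group beside the points. In 7 panels all dCAMP points lie above all gas points and gas 1 is the lowest point, while in the ALOX12B and ALOXE3 panels the groups overlap and gas 1 is the highest.

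Serine palmitoyltransferase catalyses the first and committing step of ceramide synthesis, and SPTLC1 and SPTLC2 encode 2 of its long chain subunits. SPTLC1 (gene ID 484192; CanFam3.1 chr1:94997240-95062424) was at 63.3, 72.8 and 86.6 CPM in gas 1, 2 and 3 and at 92.9, 97.6 and 92.4 CPM in dCAMP 1, 2 and 3. The groups did not overlap, although gas 3 came close to the lowest dCAMP library. SPTLC1 had a log2 fold change of 0.35 with a standard error of 0.13, an unadjusted p of 0.0349 and an adjusted p of 0.23 by edgeR.

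SPTLC2, the catalytic partner of SPTLC1 (gene ID 480403; CanFam3.1 chr8:50291797-50401202), stood at 75.7, 105.1 and 119.0 CPM in the gas libraries. In dCAMP it was at 138.6, 134.4 and 133.1 CPM, a narrow range above all gas values. For SPTLC2 the log2 fold change was 0.44 ± 0.17 (SE), with an unadjusted p of 0.0387 and an adjusted p of 0.235 by edgeR. SPTLC2 has a mean transcript length of 7115 bases, longer than that of 94.2% of genes tested. After correction of each library for its trend on gene length the log2 fold change was 0.21 with an unadjusted p of 0.101 by edgeR. A pseudogene of 870 bases, LOC102155133, lies within its locus and held 0 to 7 counts in a library.

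The 2 subunits kept similar proportions. The ratio of SPTLC1 to SPTLC2 FPKM was 1.89 ± 0.207 (SD, n = 3) in gas and 1.74 ± 0.06 (SD, n = 3) in dCAMP, a difference smaller than the spread among the gas libraries. SPTLC3, an alternative catalytic subunit, made up 9.53% to 11.5% of the FPKM of the 3 subunits in gas and 9.93% to 11.1% in dCAMP. It was higher in dCAMP by 0.42 ± 0.11 (SE) on the log2 scale, with an unadjusted p of 0.00689 and an adjusted p of 0.221 by edgeR. For SPTLC3 the adjusted p was 0.0375 by DESeq2 fitted to every gene with any count, and with the length correction the log2 fold change was 0.26.

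Ceramide synthase 3, encoded by CERS3, attaches very long acyl chains to the sphingoid base and is the ceramide synthase characteristic of epidermis and testis. CERS3 (gene ID 607925; CanFam3.1 chr3:40448174-40570736) was at 78.7, 103.4 and 118.3 CPM in gas and at 136.0, 143.5 and 129.6 CPM in dCAMP. Every dCAMP library was above every gas library, with gas 1 farthest below. The log2 fold change was 0.45 ± 0.16 (SE), with an unadjusted p of 0.0278 and an adjusted p of 0.224 by edgeR.

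Of the 9 annotated CERS3 transcripts, XM_005618295 carried 84.7% to 93.3% of the counts in each library. A shorter transcript, XM_005618296, carried 1.78%, 6.87% and 8.25% in gas 1, 2 and 3 and 8.32% to 10.7% in dCAMP. Its share in gas 3 was close to that in dCAMP 2, so the gap between the groups is that of gas 1 and 2. Another transcript, XM_844788, took 6.11% in dCAMP 2 and at most 0.459% in the other libraries.

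Among the 6 ceramide synthases, CERS3 made up 15.4%, 20.6% and 22.5% of the summed FPKM in gas 1, 2 and 3 and 26.6%, 26.8% and 26.1% in dCAMP. CERS2, the broadly expressed synthase for very long chains, was the most abundant, at 37.8% to 44.8% in gas and 36.1% to 36.9% in dCAMP. The ratio of CERS3 to CERS2 FPKM was 0.343, 0.504 and 0.595 in gas and 0.717 to 0.743 in dCAMP. CERS5 followed CERS2, at 29.0% to 33.9% in any library, and CERS1, a synthase of neural tissue, was below the filter on low counts.

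The sphingolipid desaturase DEGS1 inserts the double bond that turns dihydroceramide into ceramide. DEGS1 (gene ID 490395; CanFam3.1 chr7:40147293-40152190) was at 85.4, 98.7 and 101.6 CPM in gas and at 103.9, 104.0 and 104.1 CPM in dCAMP. The dCAMP libraries were nearly identical, and gas 3 lay just under them. The difference was 0.13 ± 0.10 (SE) on the log2 scale, with an unadjusted p of 0.225 and an adjusted p of 0.387 by edgeR, and without gas 1 it was 0.04. DEGS1 supplied 94.9% to 98.2% of the summed FPKM of the 2 desaturases in every library. The remainder was DEGS2, which makes the phytoceramides of skin.

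UGCG encodes glucosylceramide synthase, which adds glucose to ceramide for storage in lamellar granules. UGCG (gene ID 481666; CanFam3.1 chr11:66439346-66472897) was at 4.84, 8.47 and 11.3 CPM in the gas libraries. The dCAMP libraries held 12.1, 12.1 and 11.9 CPM, above all gas libraries, with a CV of 0.802% against 39.5% in gas. UGCG had a log2 fold change of 0.55 ± 0.29 (SE), with an unadjusted p of 0.105 and an adjusted p of 0.287 by edgeR. The log2 fold change was 0.27 without gas 1 (adjusted p 0.285 by edgeR) and 0.80 without gas 3 (adjusted p 0.0494). Without gas 3, 15.0% of all genes were higher and 18.1% lower with an adjusted p under 0.05. With any other library left out the adjusted p of UGCG was 0.472 to 0.502.

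Elongation of fatty acids beyond the common lengths is carried out by the ELOVL family, of which ELOVL4 makes the ultra long chains of acylceramides. ELOVL4 (gene ID 481894; CanFam3.1 chr12:40845357-40876658) was at 7.02, 12.2 and 19.1 CPM in gas and at 30.0, 23.0 and 25.9 CPM in dCAMP. The lowest dCAMP library was above the highest gas library, and the gas libraries spanned more than a 2-fold range. ELOVL4 had a log2 fold change of 1.04 ± 0.35 (SE), the largest of the 9, with an unadjusted p of 0.023 and an adjusted p of 0.222 by edgeR. Leaving out gas 1 gave 0.73 (adjusted p 0.199 by edgeR), and leaving out gas 3 gave 1.40 (adjusted p 0.0223). By that adjusted p without gas 3, 15.0% of all genes passed 0.05 as higher and 18.1% as lower. With any other library left out the adjusted p of ELOVL4 was 0.463 to 0.502. ELOVL4 thus falls under the 2-fold threshold without gas 1, and also without gas 2 (0.99), without dCAMP 1 (0.94) and after the length correction (0.98). Its locus shares 12 bases with LOC102154910, which held 0 to 12 counts.

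ELOVL4 was a small part of the elongase transcripts, at 2.02%, 3.14% and 4.10% of the family's FPKM in gas 1, 2 and 3 and at 6.24%, 4.77% and 5.42% in dCAMP. ELOVL1, which elongates saturated chains, took 57.9%, 48.8% and 36.5% in gas and 31.2% to 32.7% in dCAMP, so gas 3 was nearer to dCAMP than to gas 1. ELOVL7 took 2.37%, 4.54% and 6.92% in gas and 8.97% to 10.4% in dCAMP. ELOVL2 and ELOVL3 had at most 5 counts in any library. The ratio of ELOVL4 to ELOVL1 was 0.0349, 0.0643 and 0.112 in gas and 0.151 to 0.191 in dCAMP, without overlap.

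**Figure D2:**
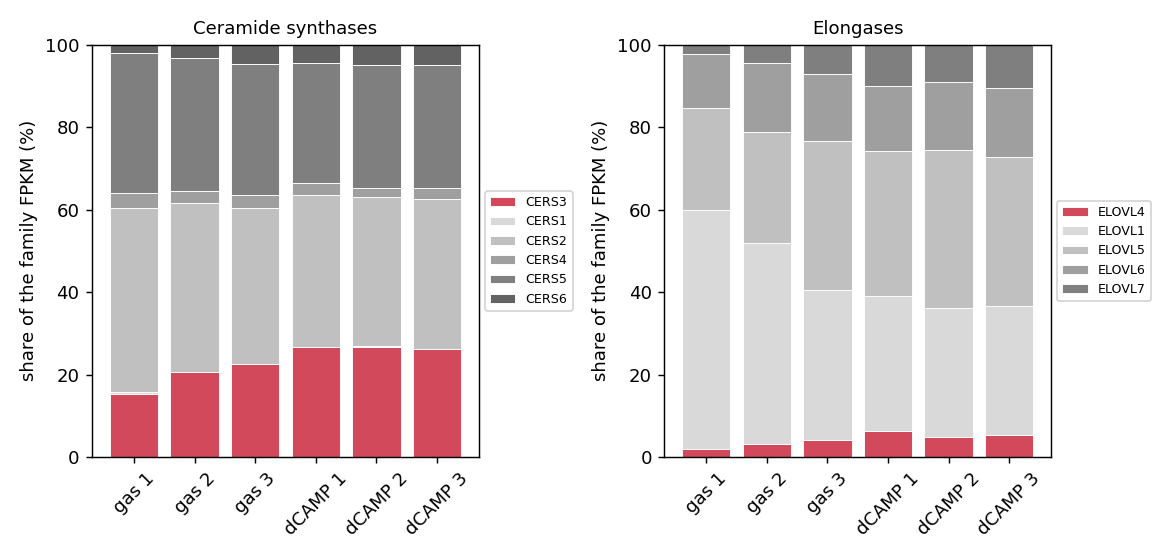
Share of the summed FPKM of the 6 ceramide synthases (left) and of the elongases (right, in percent, ELOVL2 and ELOVL3 not drawn because they are near 0) in each library. The red segments show CERS3 between 15.4% and 22.5% in gas and 26.1% and 26.8% in dCAMP, and ELOVL4 between 2.02% and 4.10% in gas and 4.77% and 6.24% in dCAMP.

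ABCA12 is the transporter that loads glucosylceramides into lamellar granules. ABCA12 (gene ID 478900; CanFam3.1 chr37:22136732-22306917) was at 31.0, 41.0 and 51.1 CPM in gas. In dCAMP it was at 80.2, 65.9 and 80.9 CPM, so that the lowest dCAMP library, dCAMP 2, was still above gas 3. ABCA12 differed by a log2 fold change of 0.88 ± 0.20 (SE), with an unadjusted p of 0.00381, the smallest of the 9, and an adjusted p of 0.221 by edgeR. By DESeq2 the adjusted p was 0.0175 with every gene that had a count and 0.0276 where each library needed one. Leaving out gas 1 gave a log2 fold change of 0.70 (adjusted p 0.196 by edgeR), and leaving out gas 3 gave 1.03 (adjusted p 0.0208). With any other library left out the adjusted p of ABCA12 was 0.463 to 0.502. In the fit without gas 3, 15.0% of all genes were higher and 18.1% lower with an adjusted p under 0.05. The ABCA12 transcript has 9743 bases, longer than the mean transcript of 98.2% of genes tested. With the length correction the log2 fold change of ABCA12 was 0.63 with an unadjusted p of 0.0018 by edgeR.

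The epidermal lipoxygenases ALOX12B and ALOXE3 act in sequence on the linoleate of acylceramides, and their genes are neighbours on chromosome 5. ALOX12B (gene ID 489486; CanFam3.1 chr5:32899416-32911442) had 72, 30 and 14 counts in gas and 53, 13 and 33 in dCAMP. Its 95% Poisson intervals, which cover counting error only, were 56.3 to 90.7 counts in gas 1 and 7.65 to 23.5 in gas 3, so that these gas libraries differed by more than counting error. In CPM the values were 1.56, 0.570 and 0.264 in gas and 1.14, 0.303 and 0.730 in dCAMP, and the groups overlapped throughout. The log2 fold change was -0.11 ± 0.70 (SE), with an unadjusted p of 0.879 and an adjusted p of 0.922 by edgeR.

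ALOXE3 (gene ID 489487; CanFam3.1 chr5:32917681-32941470) had 173, 68 and 33 counts in gas and 115, 79 and 73 in dCAMP. Its CPM values were 3.74, 1.29 and 0.622 in gas and 2.48, 1.84 and 1.62 in dCAMP, with the dCAMP libraries inside the gas range. The log2 fold change was 0.08 ± 0.60 (SE), with an unadjusted p of 0.90 and an adjusted p of 0.934 by edgeR.

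The sign of both lipoxygenases turned with single libraries. Without gas 1 the log2 fold change was 0.73 for ALOX12B (unadjusted p 0.236) and 0.997 for ALOXE3 (unadjusted p 0.025, adjusted p 0.214). Without gas 3 it was -0.56 and -0.38. Gas 1, the lowest library for the other 7 genes, was the highest for these 2, and gas 3 was the lowest. Over all genes tested, gas 1 was the lowest library in 39.2% and gas 3 in 12.2%. Among 56 other tested genes of barrier lipid metabolism, gas 1 was the highest library in 23 and the lowest in 23.

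Both were minor among the 5 lipoxygenase genes compared, which were ALOX5, ALOX12, ALOX12B, ALOX15 and ALOXE3. ALOX12 (the platelet type enzyme, also expressed in skin) supplied 93.2% to 97.5% of the FPKM of the 5 lipoxygenase genes, ALOX12B 0.778% to 2.49% and ALOXE3 1.34% to 4.01%, while ALOX5 was at 0 counts throughout. The ratio of ALOXE3 to ALOX12B FPKM was 1.61, 1.51 and 1.59 in gas and 1.45 and 1.49 in dCAMP 1 and 3, but 4.08 in dCAMP 2, where ALOX12B had 13 counts.

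**Figure D3:**
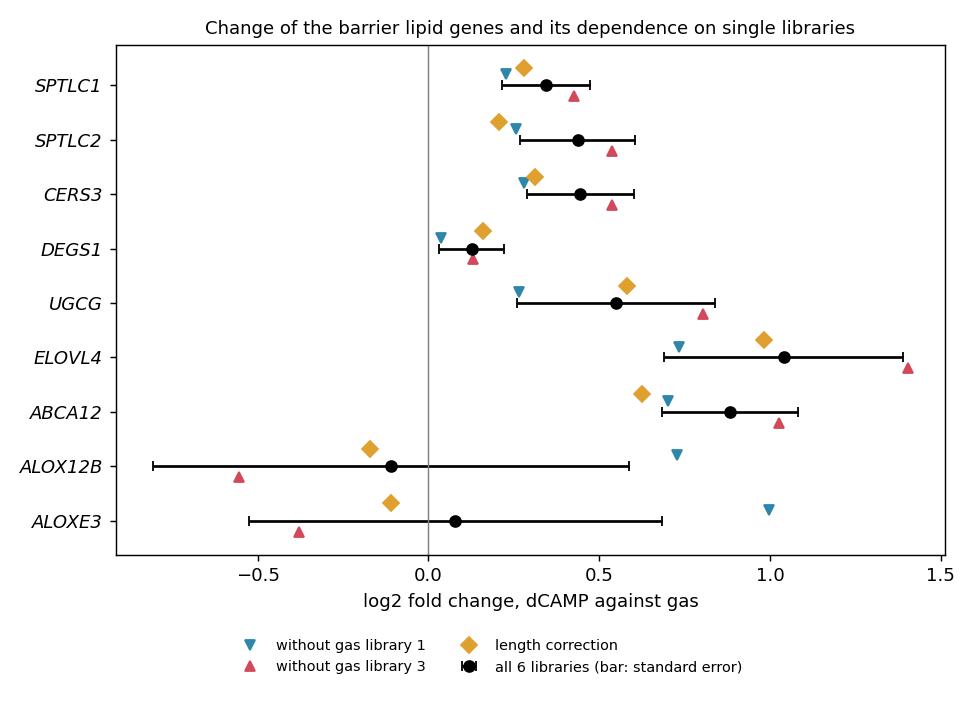
Log2 fold change of dCAMP against gas for the 9 genes (black points, bars are the standard error) and the same value without gas library 1, without gas library 3 and with the length correction. The 7 genes from SPTLC1 to ABCA12 lie above 0 in all of these fits, and ALOX12B and ALOXE3 move to 0.73 and 0.997 without gas 1 and to -0.56 and -0.38 without gas 3.

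By FPKM, the order of the 9 genes in gas was DEGS1 (56.9 ± 4.10, SD, n = 3), SPTLC1 (23.2 ± 3.32), CERS3 (22.9 ± 4.83), SPTLC2 (12.4 ± 2.59), UGCG (4.44 ± 1.69), ELOVL4 (3.87 ± 1.77), ABCA12 (3.70 ± 0.844), ALOXE3 (0.451 ± 0.404) and ALOX12B (0.285 ± 0.248). The gas ranges of SPTLC1 and CERS3 overlapped, as did those of UGCG, ELOVL4 and ABCA12 and those of the 2 lipoxygenases. Within each gas library, however, UGCG was above ELOVL4, and ALOXE3 above ALOX12B. The order of SPTLC1 and CERS3, and that of ABCA12 against UGCG and ELOVL4, changed between gas libraries. In dCAMP DEGS1 was again highest, at 62.1 ± 0.420 FPKM (SD, n = 3). CERS3 stood at 32.1 ± 1.69 and SPTLC1 at 29.4 ± 1.03, with overlapping ranges, although CERS3 was above SPTLC1 within each dCAMP library. ELOVL4 at 7.99 ± 1.02, ABCA12 at 6.82 ± 0.739 and UGCG at 6.53 ± 0.0579 stood below SPTLC2 at 16.9 ± 0.200. The range of ABCA12 overlapped those of ELOVL4 and UGCG, although ELOVL4 was above ABCA12 within each dCAMP library. The lipoxygenases were at 0.467 ± 0.103 (ALOXE3) and 0.255 ± 0.148 (ALOX12B).

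The spread within groups differed by gene. CV values in gas ran from 9.04% (DEGS1) to 87.1% (ALOXE3), with a median of 24.5% over the 9 genes. In dCAMP they ran from 0.108% (DEGS1) to 57.9% (ALOX12B), with a median of 5.09%.

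The 7 genes outside the lipoxygenases varied together over the 6 libraries, with a Pearson r of log2 CPM between 0.877 and 0.99 in their 21 pairs. In the 14 pairs of a lipoxygenase with one of these 7, r was between -0.585 and -0.14. These coefficients describe 6 libraries that share groups and length trend, and carry no test.

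Among the other members and the pathway genes tested (64 per member), the gene most alike in log2 CPM was named for each member. SPTLC2 was most like CERS3 (r = 0.987), and the ceramide transfer protein gene COL4A3BP was most like SPTLC2 (r = 0.994). The sphingomyelin synthase gene SGMS2 came first for SPTLC1 (r = 0.996), ASAH1, encoding acid ceramidase, for DEGS1 (r = 0.998), and ORMDL1, a regulator of serine palmitoyltransferase, for UGCG (r = 0.999). For ELOVL4 it was ELOVL7 (r = 0.992) and for ABCA12 it was SPTLC3 (r = 0.989).

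For the lipoxygenases the search was over the same list, so the gene named is a barrier lipid gene by choice of the list. The marker genes were not searched. SDR9C7, whose product oxidizes the lipoxygenase product further, was most like ALOX12B (r = 0.993), and CYP4F22, the hydroxylase that prepares the acyl chain for linoleate, was most like ALOXE3 (r = 0.991). SDR9C7 was at 3.15, 1.39 and 0.622 CPM in gas and 2.22, 0.840 and 1.68 CPM in dCAMP. CYP4F22 was at 16.9, 8.34 and 6.32 CPM in gas and 13.3, 11.03 and 10.6 CPM in dCAMP.

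The library order of ALOX12B, from gas 1 through dCAMP 1, dCAMP 3, gas 2 and dCAMP 2 down to gas 3, was shared by 61 of 14708 genes (0.415%), ALOX12B included. Of the 81 pathway and marker genes tested, those with this order were ALOX12, SDR9C7, the glycolipid transfer protein gene GLTP, and the differentiation genes IVL, LOR and KRTDAP; this count was made after the values were seen. The summed FPKM of the 6 differentiation markers was 1237, 746.8 and 516.3 in gas and 999.1, 701.0 and 899.0 in dCAMP, and most of it was IVL, at 1055 FPKM in gas 1. KRT10 of the same list did not follow this order: it was lowest in gas 1, at 21.4 CPM, and at 34.3 and 33.2 CPM in gas 2 and 3 and 30.0, 31.1 and 31.5 CPM in dCAMP. ALOXE3 was higher in dCAMP 2 than in dCAMP 3, while the marker sum was lower there. KRT1 was at 0 in all libraries, and the part of keratinocyte differentiation in the lipoxygenase values was not tested. In bulk RNA, fewer cells expressing a gene and less RNA per cell cannot be told apart.

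**Figure D4:**
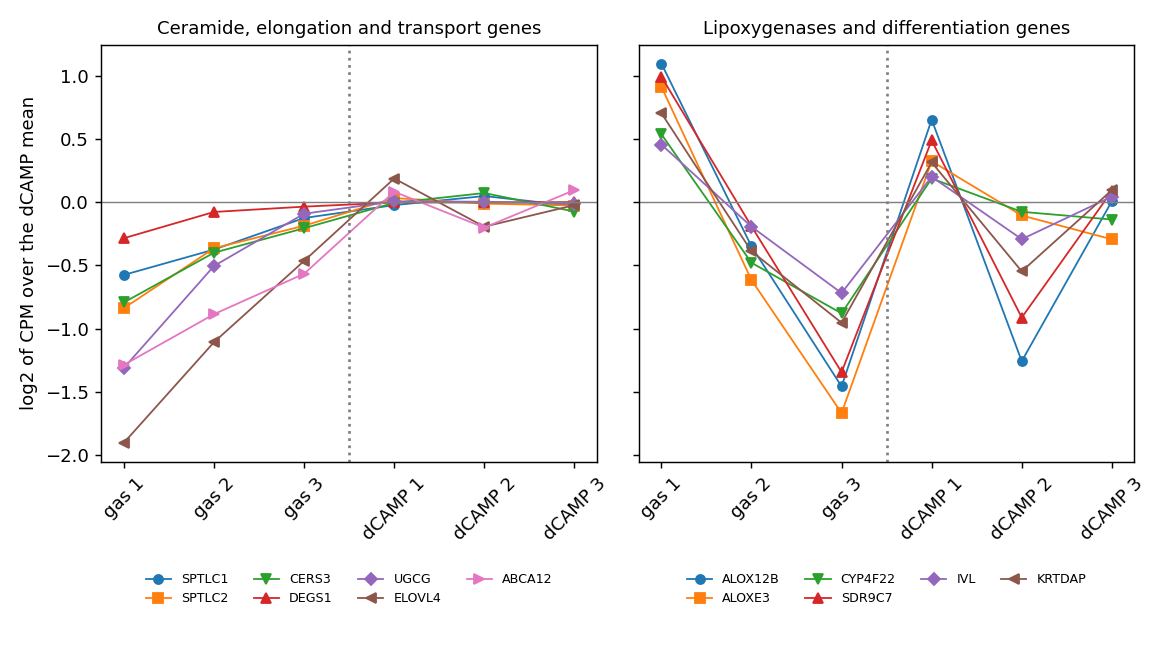
Log2 ratio of the CPM in each library to the dCAMP mean for the 7 ceramide, elongation and transport genes (left) and for ALOX12B, ALOXE3 and 4 genes with a similar course (right), with a dotted line between gas and dCAMP libraries. The left curves are lowest in gas 1, nearest to dCAMP in gas 3 and near 0 in dCAMP, while the right curves are highest in gas 1 and lowest in gas 3. KRT10, a differentiation marker that was lowest in gas 1, is not drawn.

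A wider list of genes of barrier lipid metabolism placed the 9 genes in their pathways. Of its genes, 63 were found in the table and 56 tested, of which 32 were higher and 24 lower in dCAMP, with a median log2 fold change of 0.09. With an unadjusted p under 0.05, 5 of 56 were higher and 4 lower, beside 6.81% and 13.9% of all genes tested, and 0 of 56 passed an adjusted p of 0.05 in edgeR. In 16 of 56 every dCAMP library was above every gas library, and in 9 below, beside 19.0% and 20.9% of all genes. Without gas 3, 14 were higher and 8 lower with an adjusted p under 0.05, beside 15.0% and 18.1% of all genes. With voom weights 23 were higher and 11 lower, beside 32.6% and 28.2%. The library order seen in 7 of the 9 genes, with gas 1 lowest and all dCAMP libraries above gas 3, was shared by 14 of 56, beside 14.7% of all genes tested.

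Counts by step of the pathway stand beside those of all genes tested, of which 52.4% were higher in dCAMP. At an unadjusted p under 0.05 by edgeR, 6.81% of all genes were higher and 13.9% lower. In fatty acid elongation, 8 of 10 genes tested were higher and 2 lower (median log2 fold change 0.33). ELOVL7 and HSD17B12 were higher and ELOVL1 lower at an unadjusted p under 0.05. Gas 1 was the lowest library in 8 of these 10 genes, beside 39.2% of all genes. In de novo ceramide synthesis 5 of 11 were higher and 6 lower (median -0.09), with SPTLC3 and KDSR higher at an unadjusted p under 0.05. In acylceramide synthesis 5 of 6 were counted as higher, among them PNPLA1 at a log2 fold change of 0.00 (p 0.998), and 0 of 6 had an unadjusted p under 0.05 in edgeR. By adjusted p with voom weights 3 of these 6 were higher and 1, SLC27A4, was lower, beside 32.6% and 28.2% of all genes. The 3 tested genes of the lipoxygenase pathway, ALOX12, SDR9C7 and EPHX3, had log2 fold changes of -0.003, -0.11 and -0.04. Of 24 genes of ceramide processing and turnover 14 were higher and 10 lower. At an unadjusted p under 0.05 by edgeR 1 of them, SGMS2, was higher and 3, SMPD3, SPHK2 and GBA2, were lower. The cholesterol sulfate genes SULT2B1 and STS had log2 fold changes of -0.03 and -0.21.

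Among the pathway genes higher in dCAMP at an unadjusted p under 0.05, the 3 with the highest log2 fold change were ELOVL7, SGMS2 and KDSR. ELOVL7 was at 9.48, 20.2 and 36.8 CPM in gas and 54.9, 49.5 and 57.0 CPM in dCAMP. That is a log2 fold change of 1.28 ± 0.45 (SE, unadjusted p 0.0281, adjusted p 0.224 by edgeR), larger than that of any of the 9 genes. SGMS2, which converts ceramide to sphingomyelin, was at 11.5, 17.9 and 36.2 CPM in gas and 41.3, 47.2 and 43.7 CPM in dCAMP. Its log2 fold change was 1.01 ± 0.40 (SE, unadjusted p 0.0424, adjusted p 0.238). KDSR, the reductase after serine palmitoyltransferase, was at 21.8, 26.2 and 41.4 CPM in gas and 44.9, 45.1 and 49.4 CPM in dCAMP, a log2 fold change of 0.64 ± 0.24 (SE, unadjusted p 0.0355, adjusted p 0.23). In each of these 3 genes gas 1 was the lowest library and gas 3 the highest gas library, below all of dCAMP.

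The 3 lowest were SMPD3, SPHK2 and GBA2, and in each the dCAMP libraries were below all gas libraries. SMPD3, a neutral sphingomyelinase, had 14, 12 and 17 counts in gas and 7, 6 and 6 in dCAMP, so few that its log2 fold change of -0.83 ± 0.28 (SE, unadjusted p 0.0232) was -0.03 on the scale of log2 FPKM plus 1. The sphingosine kinase gene SPHK2 was at 43.9, 39.5 and 32.7 CPM in gas and 30.7, 31.1 and 29.9 CPM in dCAMP, a log2 fold change of -0.34 ± 0.13 (SE, unadjusted p 0.0391, adjusted p 0.235 by edgeR). GBA2, a glucosylceramidase outside the lysosome, was at 35.8, 32.4 and 29.5 CPM in gas and 27.2, 26.9 and 24.4 CPM in dCAMP. Its log2 fold change was -0.31 ± 0.12 (SE, unadjusted p 0.0318, adjusted p 0.226).

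**Figure D5:**
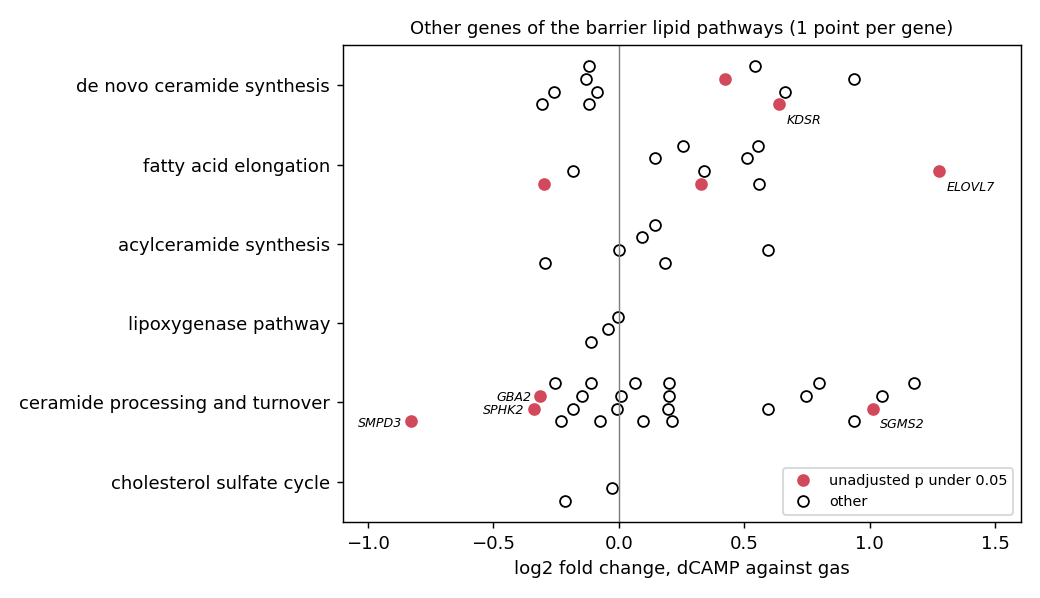
Log2 fold change of dCAMP against gas (horizontal axis) for the 56 tested genes of the wider pathway list, 1 point per gene, by step of the pathway. Filled points are the 9 genes with an unadjusted p under 0.05, from SMPD3 at -0.83 to ELOVL7 at 1.28, and names mark the 3 highest and 3 lowest of them.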

How the data were processed

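RNA-Seq of CPEK cells, 3 gas and 3 dCAMP libraries, was read from the deposited gene and transcript tables. The authors trimmed the reads with Trimmomatic 0.38 after FastQC 0.11.7, removed PCR duplicates, aligned what remained to CanFam3.1 using HISAT2 2.1.0 and summarized known transcripts with StringTie 2.1.3b. The read counts the authors deposited are whole numbers without normalization, and the deposited FPKM values are scaled to transcript length and library size. Each table also has 6 TPM columns, left aside here. The annotation release and the counting of reads on overlapping genes are not given in the sources used here. Coordinates come from the deposited transcript table.

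Counts were normalized by TMM, filtered with filterByExpr and tested by the quasi-likelihood test of edgeR 4.0.16 in R 4.3.3 (prior count 2, Benjamini-Hochberg adjustment over 14708 genes). Standard errors come from the F statistic and the fitted log2 fold change. Thresholds were a p of 0.05 and a 2-fold change. Library totals of 43084921 to 54082634 counts set the precision, and a count of 0 allows up to 3 counts (counting error only). The steps were tested on simulated counts with the same spread in both groups and no length trend, unlike these libraries.

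Alternatives were DESeq2 1.42.0 with 2 filters, RLE and upper-quartile factors, no filter or a minimum of 10 counts in each library, a block for the replicate number, a gene length correction (lowess span 0.3) with and without the block, voom with sample quality weights in limma 3.58.1, limma on log2 FPKM plus 1 or 0.1, and leaving out each library. All 9 genes were described. Of the pathway list the 3 highest and 3 lowest with an unadjusted p under 0.05 were named, since fewer than 6 passed the adjusted p, with the gene most alike to each member. Other genes were named as family members or markers. SPTSSA was not matched by symbol, COL4A3BP is an older symbol, and 1 item is not reported here. Gene identifiers of all 9 were also found in the RefSeq table of UU_Cfam_GSD_1.0, used for names only. The genes and lists were chosen with earlier results of these data known. Sequences were not used here.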

Additional observations from a re-analysis of the deposited data

How the results depend on the processing

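The 18 alternatives kept the direction of SPTLC1, SPTLC2, CERS3, DEGS1, UGCG, ELOVL4 and ABCA12, and the median log2 fold change of the 9 genes stayed between 0.28 and 0.54. Over the whole table, 161 genes had an unadjusted p under 0.05 with at least a 2-fold change, and 369 and 327 with DESeq2 (every gene with any count, or a count required in each library), 279 with no filter, 435 with the replicate block, 471 with the length correction and the block, 1010 with voom weights, 373 with log2 FPKM plus 0.1, and 135 to 1523 when 1 library was left out. With an adjusted p under 0.05 they numbered 0 in edgeR, 301 and 161 in DESeq2, 8944 with voom weights, 3 with log2 FPKM plus 0.1, and 0 to 4953 (without gas 3) when 1 library was left out. Of the 9 genes, those with a 2-fold change numbered 1, but 0 with upper-quartile factors, the length correction or log2 FPKM plus 1, and 0 to 2 when 1 library was left out. By adjusted p they numbered 0, 1 in each DESeq2 fit, 7 with voom weights, and 0 to 6 (without gas 3). By unadjusted p they numbered 5, 3 with the length correction and the block, and 1 to 6 when 1 library was left out, with 1 without gas 2 or dCAMP 1 and 2 without dCAMP 2 or dCAMP 3. Pathway genes with an unadjusted p under 0.05 numbered 9, 14 and 15 in DESeq2, 15 with upper-quartile factors, 14 with the replicate block and with the length correction and the block, 35 with voom weights, and 1 to 27 when 1 library was left out (1 without dCAMP 1 or dCAMP 3, 2 without gas 2, 3 without dCAMP 2, 27 without gas 3). ALOX12B turned to 0.32 with voom weights and ranged from -0.57 to 0.73 when 1 library was left out, positive without gas 1 (0.73) or dCAMP 2 (0.20). ALOXE3 turned to -0.054 with upper-quartile factors and -0.11 with the length correction, was called with voom weights (0.61, adjusted p 0.0378), and ranged from -0.38 to 0.997 when 1 library was left out, negative without gas 2 (-0.17), gas 3 (-0.38) or dCAMP 1 (-0.11). The causes were not tested. The log2 fold change of SPTLC1, SPTLC2, CERS3, DEGS1 and UGCG fell by over 1.5 times without gas 1, to 0.23, 0.26, 0.28, 0.04 and 0.27. Deviations from the group means of same-numbered libraries correlated by 0.13, 0.024 and 0.048, and those of other pairs by -0.139 to 0.087. With 3 libraries in each group, these values do not settle whether same-numbered libraries were paired. The replicate block left the 9 genes at 5 with an unadjusted p under 0.05 and 1 with a 2-fold change, and not every library correlated best with its own number. ALOX12B and ALOXE3 had the fewest counts of the 9, at 13 to 173 a library.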
